A study of Mus musculus with 6 samples.

Results

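The genes described here encode 7 proteins that act on the formation of circular RNAs (circRNAs), namely Qk, Mbnl1, Hnrnpl, Esrp1, Ilf2, Adar and Dhx9. They were taken by symbol from the mRNA table of mouse lacrimal gland, the gland that secretes the watery part of tears. The symbols matched 8 rows of the 22564 genes in that table, because Qk stands there with 2 identifiers. The 7 main rows had a mean of at least 0.5 FPKM (fragments per kilobase of transcript, scaled to library size) and were tested among 11772 genes. The row of Qk left out, ENSMUSG00000044407, was at 0 FPKM in 5 libraries and at 0.478 FPKM in AQP5+/+ replicate 2. It has the start and end that RefSeq gives to Cahm, a non-coding gene beside Qk. No nuclease is among the 7, so decay was described from separate lists of other genes.

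Glands of C57BL/6 mice aged 6 months were compared, from AQP5-/- mice with 3 libraries and from AQP5+/+ mice with 3 libraries. The AQP5-/- mice lack aquaporin 5, a water channel of secretory cells, and were made with CRISPR/Cas9, and the AQP5+/+ mice are their wild type control. The question put to the regulators was whether their mRNA, and with it the number of reads over circular junctions, differed between the genotypes. Nothing in the labels says whether a library came from 1 animal, so each p measures the spread between these libraries, which may in part be technical.

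A circRNA forms when the spliceosome joins the end of an exon back to the start of the same or an earlier exon, a reaction called back-splicing. It is favoured when the introns on both sides are held together, either by RNA-binding proteins that dimerise or by inverted repeats that pair into double-stranded RNA. Quaking, the product of Qk, bridges flanking introns in human epithelial cells, and muscleblind does so in the fly, where Mbnl1 has its counterpart. In human cells HNRNPL and ESRP1 alter which exons circularise, and ILF2 is a nuclear protein that works with binders of double-stranded RNA. ADAR and DHX9 act the other way, since ADAR edits adenosines in double-stranded RNA to inosine and DHX9 unwinds it.

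Beside the gene values stand some facts of the libraries. Aqp5 itself lay at 0.378, 0.177 and 0.170 FPKM in the AQP5-/- libraries, against 154, 89.0 and 142 FPKM in the AQP5+/+ libraries. The summed FPKM of 4 Y-linked genes (Ddx3y, Uty, Kdm5d and Eif2s3y) was 49.7 to 58.0 in the AQP5-/- libraries. It was 33.0 in AQP5+/+ replicate 2, but 0.320 and 0.185 in AQP5+/+ replicates 1 and 3. Against AQP5+/+ replicates 1 and 3, therefore, genotype and Y-linked content cannot be told apart. AQP5+/+ replicate 2 also held 61.6 FPKM of 8 skeletal muscle markers, against 0.807 to 2.23 FPKM in the AQP5-/- libraries and 1.01 to 1.06 FPKM in the other AQP5+/+ libraries.

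The promoter windows of 3 members are shown because these members mark the patterns reported here. Hnrnpl had the largest difference between genotypes in log2 fold change. With FPKM and plain scaling to depth, Qk had the highest Pearson's r with the junction reads and Adar was the one member below 0, an order that changed under other scalings given with the correlations. Each window runs from 250 bases before to 50 bases after a RefSeq transcription start (GRCm38.p6), on the strand of the gene. Capitals mark 5 motifs searched on both strands, namely the GC box (GGGCGG), the CAAT box (searched as CCAAT), the TATA box (searched as TATAAA), a pair of GAAA with 2 bases between them, and the same pair with the second cut to GAA. The last of these, which the longer form also contains, was added after the windows were read. The Hnrnpl window is chr7:28810640-28810939, plus strand, the Qk window is chr17:10319312-10319611, minus strand, and the Adar window is chr3:89730468-89730767, plus strand.
Hnrnpl: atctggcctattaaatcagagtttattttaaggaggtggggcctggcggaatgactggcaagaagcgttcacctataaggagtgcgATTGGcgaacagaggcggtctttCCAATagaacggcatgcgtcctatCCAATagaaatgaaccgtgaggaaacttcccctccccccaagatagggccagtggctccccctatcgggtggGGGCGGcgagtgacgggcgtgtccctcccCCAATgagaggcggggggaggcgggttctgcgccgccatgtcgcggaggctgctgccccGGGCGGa
Qk: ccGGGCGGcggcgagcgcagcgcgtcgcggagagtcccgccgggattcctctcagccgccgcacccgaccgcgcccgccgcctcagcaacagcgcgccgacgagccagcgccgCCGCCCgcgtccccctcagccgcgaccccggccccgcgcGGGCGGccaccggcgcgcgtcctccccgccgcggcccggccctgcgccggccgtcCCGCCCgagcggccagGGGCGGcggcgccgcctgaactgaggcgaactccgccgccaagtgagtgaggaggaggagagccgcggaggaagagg
Adar: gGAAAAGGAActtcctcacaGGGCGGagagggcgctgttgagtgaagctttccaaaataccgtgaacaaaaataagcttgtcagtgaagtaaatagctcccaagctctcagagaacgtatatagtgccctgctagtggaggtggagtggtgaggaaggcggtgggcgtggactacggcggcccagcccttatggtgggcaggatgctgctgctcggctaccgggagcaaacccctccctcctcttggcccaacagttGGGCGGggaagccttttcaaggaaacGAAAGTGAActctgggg
The Hnrnpl window held 4 CCAAT and 2 GGGCGG matches, while the Qk window held 5 GGGCGG matches and no CCAAT. Among the 32851 promoter windows of the table, 35.7% held GGGCGG, 37.4% held CCAAT and 13.6% held TATAAA. The Qk window was 81.7% G or C and had 57 CpG dinucleotides, against a median of 7 over all windows, and the Hnrnpl window had 21. The Adar window, the most downstream of 3 for this gene, had 12 CpG and 2 matches of the shorter pair, beginning at bases 2 and 284 of the window, while the other 2 windows of Adar held 0. That shorter pair, which resembles the element read by interferon regulatory factors, was in 8.56% of all windows, and the longer form was in 3.44% and in none of the 9 windows of the members. Windows were found for 6 members, and Esrp1 had no entry.

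The levels of the members spanned more than an order of magnitude in FPKM, which is per length and so can be set side by side between genes. Hnrnpl was the most abundant, with 76.1 ± 3.15 FPKM in AQP5-/- and 110 ± 14.4 FPKM in AQP5+/+ glands (SD, n = 3 each). Esrp1, a splicing factor of epithelial cells, came next with 50.7 ± 3.0 FPKM in AQP5-/- and 66.2 ± 8.45 FPKM in AQP5+/+ glands (SD, n = 3 each). Dhx9, Mbnl1, Adar and Qk followed between 7.03 and 19.1 FPKM in their genotype means, and neighbours in this order overlapped within their libraries. Ilf2 was the lowest, with 4.80 ± 0.458 FPKM in AQP5-/- and 5.84 ± 0.938 FPKM in AQP5+/+ glands (SD, n = 3 each).

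Of the proteins that promote or redirect back-splicing, Hnrnpl and Esrp1 were lower in every AQP5-/- library than in any AQP5+/+ library. Hnrnpl (ENSMUSG00000015165), an hnRNP that binds CA-rich RNA, had 75.9, 79.4 and 73.1 FPKM in the AQP5-/- libraries. It had 124, 94.9 and 110 FPKM in the AQP5+/+ libraries. The lowest AQP5+/+ value was that of replicate 2, which still lay above the AQP5-/- libraries. The log2 fold change, AQP5-/- over AQP5+/+, on the log2(FPKM + 0.5) scale was -0.51 ± 0.14 (SE), with an unadjusted p of 0.00671 and a Benjamini-Hochberg adjusted p of 0.431 (limma).

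Esrp1 (ENSMUSG00000040728) had 47.6, 53.6 and 50.7 FPKM in the AQP5-/- libraries, against 72.4, 56.6 and 69.7 FPKM in the AQP5+/+ libraries. The groups did not overlap, but AQP5+/+ replicate 2 lay within 3 FPKM of the highest AQP5-/- library. Its log2 fold change was -0.38 ± 0.14 (SE), with an unadjusted p of 0.0272 and an adjusted p of 0.431 (limma). The deposited span of Esrp1 (chr4:11261315-11386783, minus strand, mm10) is the same as that of Dpy19l4 on the same strand, so how reads were divided between them is uncertain. Dpy19l4 itself had 7.03 to 8.86 FPKM in AQP5-/- and 8.46 to 9.47 FPKM in AQP5+/+ libraries. Esrp2, the epithelial paralogue of Esrp1, had 14.97, 20.8 and 15.8 FPKM in the AQP5-/- libraries, against 36.7, 17.0 and 38.4 FPKM in the AQP5+/+ libraries, and here AQP5+/+ replicate 2 fell inside the AQP5-/- range.

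**Figure D1:**
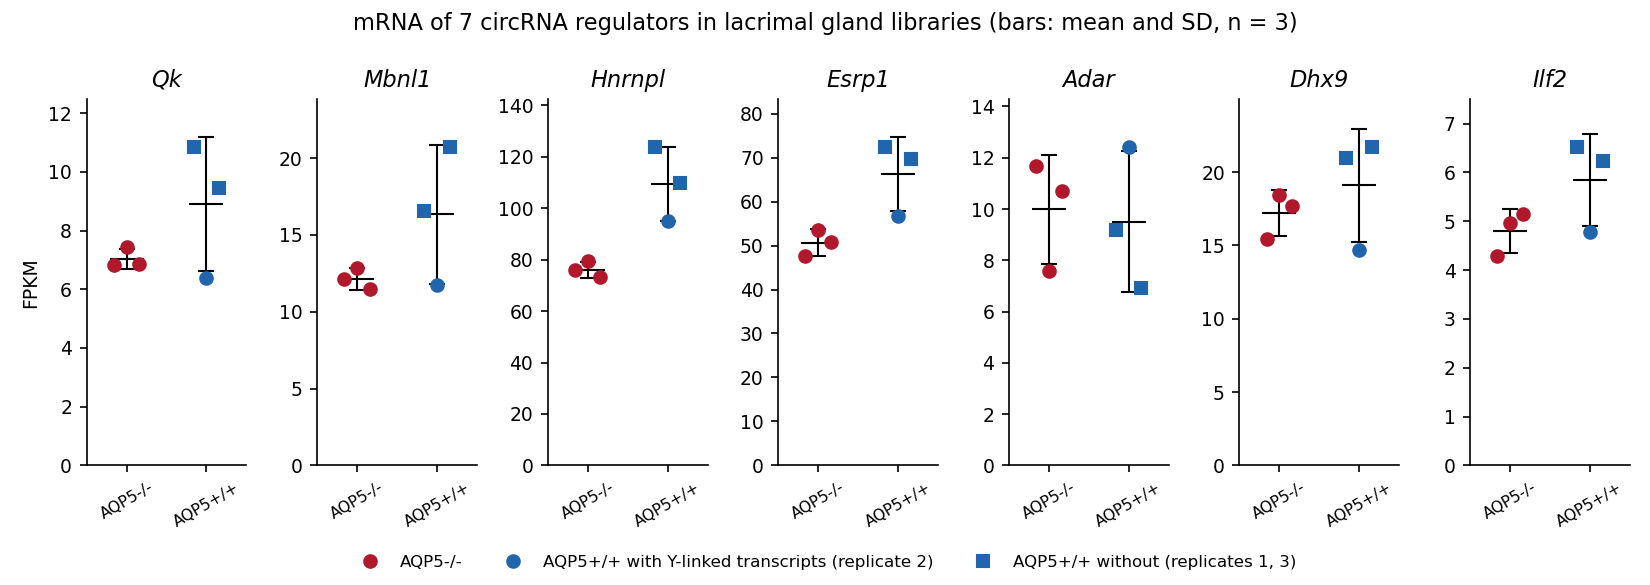
FPKM of the 7 regulators (vertical axis, from 0, 1 panel per gene) in AQP5-/- and AQP5+/+ libraries, with each point 1 library, the bars mean and SD (n = 3), and squares the AQP5+/+ libraries without Y-linked transcripts. Hnrnpl and Esrp1 are the members whose genotypes do not overlap, and AQP5+/+ replicate 2 lies with or near the AQP5-/- libraries in most panels.

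The other members of this kind had lower AQP5-/- means with overlapping libraries. Qk (ENSMUSG00000062078) had 6.82, 7.43 and 6.85 FPKM in the AQP5-/- libraries, against 10.8, 6.38 and 9.46 FPKM in the AQP5+/+ libraries. Mbnl1 (ENSMUSG00000027763) had 12.1, 12.8 and 11.4 FPKM in the AQP5-/- libraries, against 16.6, 11.7 and 20.7 FPKM in the AQP5+/+ libraries. Ilf2 (ENSMUSG00000001016) had 4.28, 4.97 and 5.15 FPKM in the AQP5-/- libraries, against 6.52, 4.77 and 6.23 FPKM in the AQP5+/+ libraries. In each of these genes AQP5+/+ replicates 1 and 3 were above every AQP5-/- library, whereas AQP5+/+ replicate 2 lay below all of them (Qk) or among them (Mbnl1 and Ilf2). The log2 fold changes were -0.29 ± 0.20 for Qk, -0.38 ± 0.20 for Mbnl1 and -0.25 ± 0.17 for Ilf2 (SE), with adjusted p of 0.533, 0.461 and 0.530 in that order (limma). Ilf2 shares its deposited span with Snapin, which lies on the opposite strand, and use of strand in the counting is not stated in these sources.

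Adar and Dhx9, which oppose pairing of introns, did not move together. Dhx9 (ENSMUSG00000042699) had 15.4, 18.4 and 17.7 FPKM in the AQP5-/- libraries, against 20.9, 14.7 and 21.7 FPKM in the AQP5+/+ libraries. As in Qk, AQP5+/+ replicates 1 and 3 stood at the top and replicate 2 at the bottom, and the log2 fold change was -0.13 ± 0.18 (SE, adjusted p = 0.740, limma). Adar (ENSMUSG00000027951) had 11.7, 7.58 and 10.7 FPKM in the AQP5-/- libraries, against 9.17, 12.4 and 6.93 FPKM in the AQP5+/+ libraries. Here AQP5+/+ replicate 2 was the highest of all libraries and replicate 3 the lowest, the genotypes overlapped, and the log2 fold change was 0.08 ± 0.24 (SE, adjusted p = 0.892, limma).

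Adar also differed from the rest in how its fragments were turned into FPKM. The deposited scaled count divided by the FPKM, which follows the length that Cufflinks assigned to the expressed transcripts, ranged over 1.25-fold between libraries for Adar. It was 70.1, 76.9 and 61.5 in the AQP5-/- libraries, against 62.4, 67.8 and 66.2 in the AQP5+/+ libraries. For Dhx9, Mbnl1 and Ilf2 the same ratio stayed within 1.01-fold. It ranged over 1.16-fold for Hnrnpl, 1.09-fold for Qk and 1.04-fold for Esrp1. On estimated fragments, Adar had 829, 504 and 742 in the AQP5-/- libraries, against 625, 897 and 385 in the AQP5+/+ libraries, in the same order of libraries as FPKM. ADAR is made in a short form and in a long form induced by interferon from a separate start, but gene level values do not separate the forms.

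Counted together, 0 of the 7 members reached a 2-fold change with p under 0.05, a threshold passed by 240 genes (2.04% of 11772). At an adjusted p under 0.05 the count was 0 of 7, against 0.0170% of all genes. Hnrnpl and Esrp1 were the 2 of 7 lower in AQP5-/- at an unadjusted p under 0.05 (limma), and 8.12% of all genes were lower at that level. DESeq2 and edgeR on estimated fragments gave 2 of 7 lower at the same level, against 6.73% and 7.28% of all genes. At an adjusted p under 0.05 both gave 0 of 7, against 149 of 11772 genes in DESeq2 and 2 of 11772 in edgeR. The same 2 members were those with every AQP5-/- library below every AQP5+/+ library, which held for 11.1% of all genes. In log2 fold change 6 of 7 members lay below 0, as did 67.0% of all genes, and the median was -0.29 for the members and -0.12 for all genes.

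That shift of all genes depends on the scaling. After the libraries were centred on their medians, the median of all genes was 0.01 and that of the members -0.15. Hnrnpl then stood at -0.38 and Esrp1 at -0.24, still with unadjusted p of 0.00949 and 0.0391 (limma), whereas Dhx9 stood at 0.0060. With TMM scaling of the estimated fragments in edgeR, Hnrnpl was -0.36 ± 0.10 and Esrp1 -0.25 ± 0.10 (SE), with adjusted p of 0.384 and 0.401.

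The library that most decided these values was AQP5+/+ replicate 2. Without it, 5 of 7 members were lower at an unadjusted p under 0.05 (limma), with Hnrnpl at -0.61 ± 0.12, Mbnl1 at -0.59 ± 0.14, Qk at -0.50 ± 0.14, Esrp1 at -0.49 ± 0.11 and Ilf2 at -0.38 ± 0.16 (SE). Of all genes 22.6% were lower at that level in the same fit, so the rise was shared by genes that are not members. Hnrnpl (adjusted p = 0.0275) and Esrp1 (adjusted p = 0.0494) then passed adjustment in limma, in a fit where 7.92% of all genes did. The 2 AQP5+/+ libraries kept in that fit are those without Y-linked transcripts. Adding a term for Y-linked transcripts instead, which sets AQP5+/+ replicate 2 alone against the AQP5-/- libraries, gave -0.32 ± 0.15 for Hnrnpl and -0.16 ± 0.14 for Esrp1 (SE), and Qk, Mbnl1, Dhx9 and Ilf2 were then above 0. Among libraries with Y-linked transcripts alone, Hnrnpl in AQP5-/- glands averaged 0.802 times its value in AQP5+/+ replicate 2, Esrp1 0.895 times and Qk 1.10 times. The share of Y-linked content in the differences was not tested beyond these fits.

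**Figure D2:**
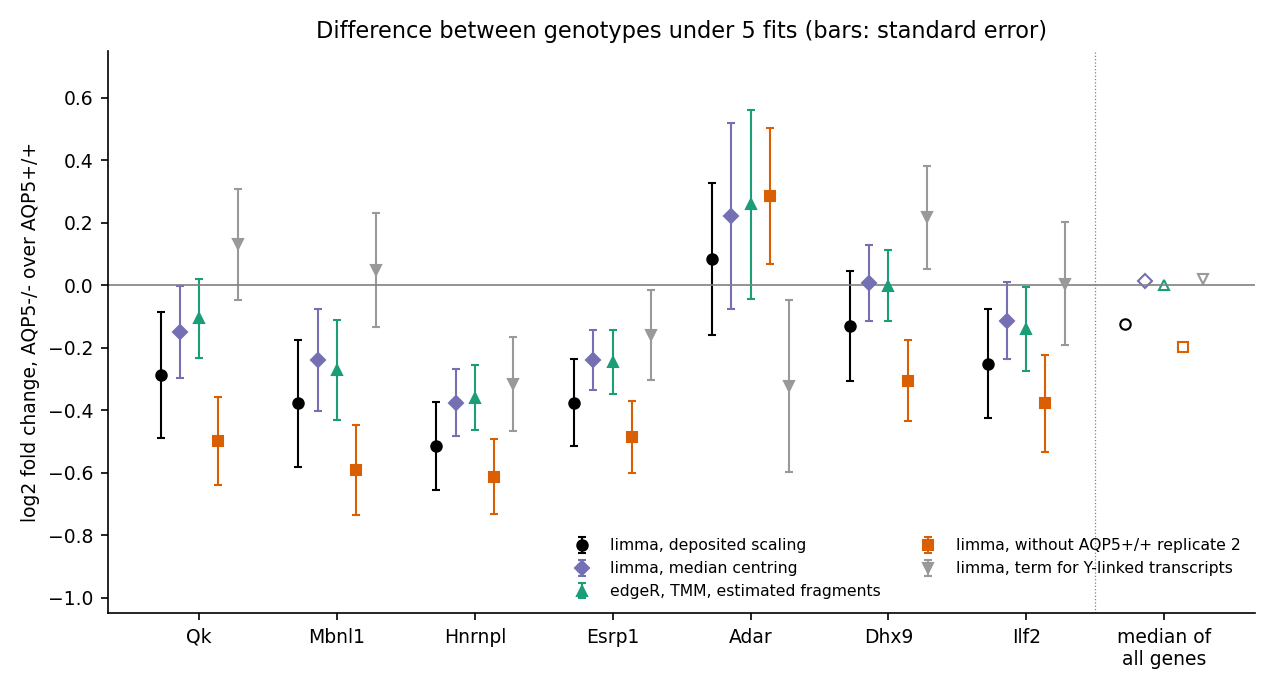
Log2 fold change of each regulator, AQP5-/- over AQP5+/+ (vertical axis, points with standard error bars), under 5 fits, with open symbols for the median of all genes. Hnrnpl and Esrp1 stay below 0 in all 5 fits shown, while Qk, Mbnl1, Dhx9 and Ilf2 move above 0 with the term for Y-linked transcripts.

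The members were next set beside the total of raw junction reads, that is, reads that span a back-splice. The AQP5-/- libraries had 2292, 2188 and 2572 junction reads, against 2953, 2032 and 2295 in the AQP5+/+ libraries. The AQP5-/- libraries lay inside the AQP5+/+ range, with a ratio of means of 0.969 and an exact two-sided permutation p of 0.80 (smallest possible 0.10). Scaled to 1000000 estimated fragments of protein-coding genes, a measure called depth-scaled junction reads here, there were 179, 187 and 187 junction reads in the AQP5-/- libraries, against 261, 164 and 204 in the AQP5+/+ libraries, an exact permutation p of 0.50. With TMM factors the AQP5-/- mean was instead 1.07 times that of AQP5+/+, with an exact permutation p of 0.20, so the sign of this small difference depended on the scaling.

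Across the 6 libraries, with FPKM and plain scaling to depth, Qk had the highest Pearson's r with the junction reads of the 7 members, and by rank it was level with Ilf2. Depth-scaled junction reads correlated with log2(FPKM + 0.5) of Qk at Pearson's r = 0.93 (exact permutation p = 0.00417, adjusted over 7 members 0.0292) and Spearman's rho = 0.94 (exact permutation p = 0.0167, adjusted 0.0583). Without AQP5+/+ replicates 1 and 3, the libraries farthest from the median of Qk, r was 0.83 over 4 libraries. Ilf2 gave r = 0.83 (exact permutation p = 0.0125, adjusted 0.0438) and rho = 0.94 (exact permutation p = 0.0167, adjusted 0.0583), but r fell to 0.37 without the same libraries. Dhx9 gave r = 0.76 (exact permutation p = 0.0347, adjusted 0.0802) and rho = 0.89 (exact permutation p = 0.0333, adjusted 0.0778), with r = 0.85 when AQP5+/+ replicates 2 and 3 were left out.

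Hnrnpl and Esrp1, the members with the smallest p between genotypes, gave less even relations. Esrp1 had r = 0.75 (exact permutation p = 0.0458, adjusted 0.0802) with rho = 0.60 (exact permutation p = 0.242, adjusted 0.282). Hnrnpl had r = 0.72 (exact permutation p = 0.0625, adjusted 0.0875) with rho = 0.49 (exact permutation p = 0.356, adjusted 0.356). Without AQP5+/+ replicates 1 and 3, r was -0.52 for Esrp1 and -0.90 for Hnrnpl, so these relations rest on those libraries. Mbnl1 gave r = 0.61 (exact permutation p = 0.181, adjusted 0.211) with rho = 0.60 (exact permutation p = 0.242, adjusted 0.282), and r = 0.30 without the same libraries. In this scaling Adar was the one member below 0, with r = -0.40 (exact permutation p = 0.486, adjusted 0.486) and rho = -0.71 (exact permutation p = 0.136, adjusted 0.238). Its r was -0.96 without AQP5-/- replicate 2 and AQP5+/+ replicate 3. On FPKM without the log, AQP5+/+ replicates 2 and 3 were the farthest for Adar, and r without them was -0.29.

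Other genes shared this relation. Qk, Dhx9, Ilf2 and Esrp1 were the 4 of 7 members correlated upwards with junction reads at p under 0.05, and 15.8% of all genes were too, with a median r of 0.45 over all genes. When both sides were scaled with TMM factors, a choice made after seeing the data, r was 0.53 for Qk (exact permutation p = 0.313), 0.74 for Dhx9 (exact permutation p = 0.139) and -0.06 for Ilf2 (exact permutation p = 0.954). The count was then 0 of 7, against 0.985% of all genes, and the median r over all genes was -0.02. With the raw total in place of depth-scaled reads it was also 0 of 7, against 3.24% of all genes. With the scaling factor of the deposited mRNA counts applied to junction reads, another choice made after seeing the data, Dhx9 reached r = 0.95 (exact permutation p = 0.00139) with rho at its maximum of 1, Qk r = 0.87 (exact permutation p = 0.0181) and Adar r = -0.86 (exact permutation p = 0.0333), while 10.3% of all genes were correlated upwards. With that factor, and with TMM factors, Dhx9 and not Qk had the highest r of the 7 members. With TMM factors, however, Dhx9 had a rho of 0.03, and its r was -0.82 without AQP5+/+ replicates 2 and 3. Adar was then not alone below 0, with r = -0.42 beside -0.39 for Hnrnpl, -0.27 for Esrp1 and -0.06 for Ilf2. The rho of Adar was 0.14 with those factors. Within AQP5-/- glands the 3 libraries differed by less than 9 depth-scaled junction reads, so the relation is drawn almost wholly by the AQP5+/+ libraries.

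**Figure D3:**
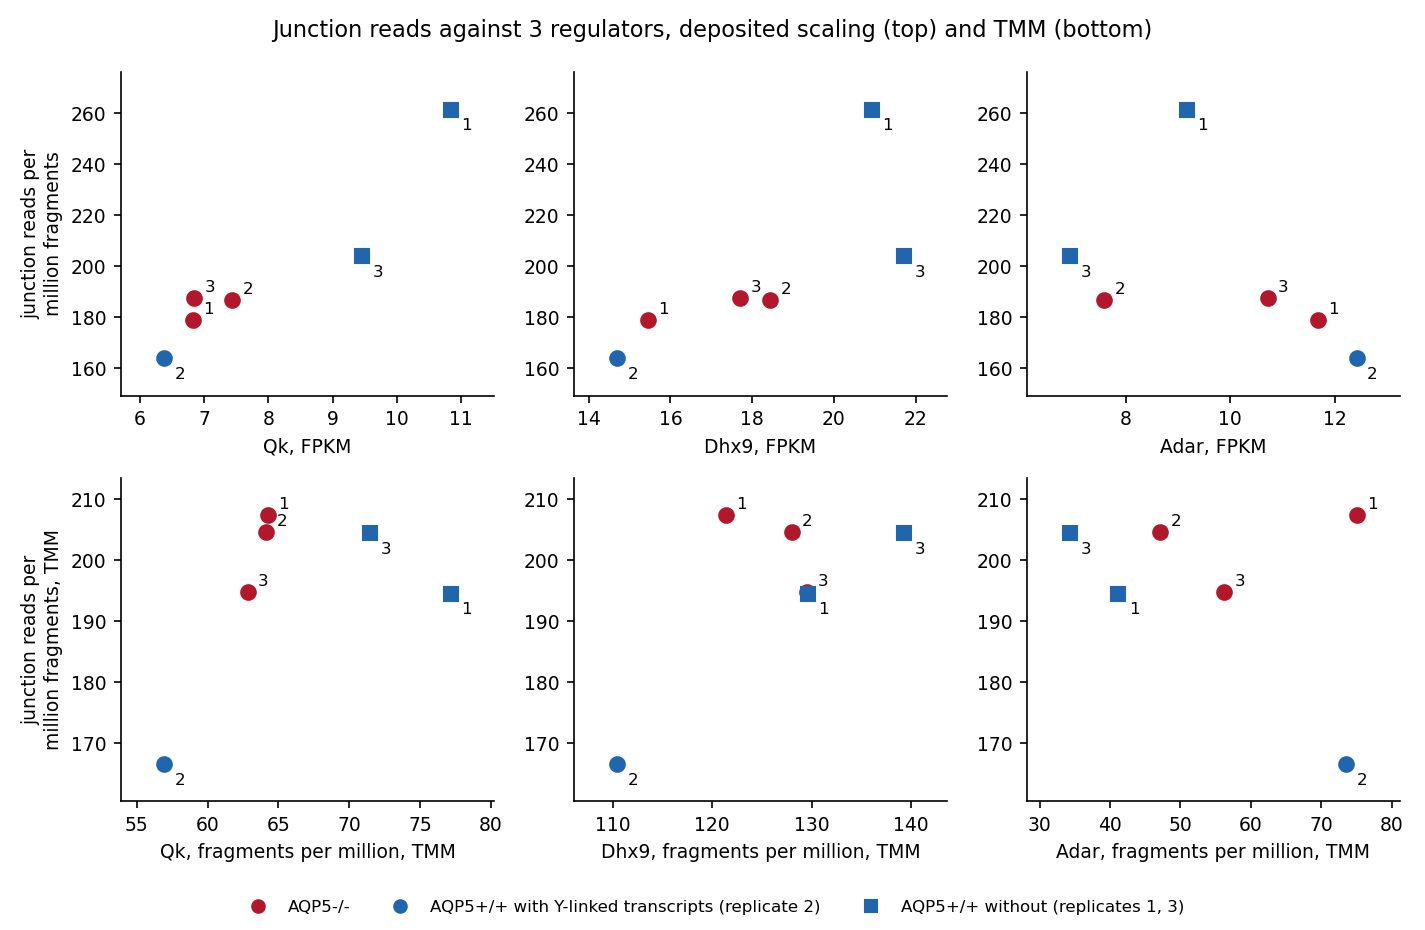
Depth-scaled junction reads, per 1000000 estimated fragments (vertical axis) against the level of Qk, Dhx9 and Adar (horizontal axis), with FPKM and plain fragment totals on top and TMM factors on both axes below. Each point is 1 library, numbered by replicate. The order of libraries along Qk and Dhx9 in the top panels is not kept in the bottom panels.

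In FPKM the members other than Adar correlated upwards with each other, to differing degrees. Over the 6 libraries Pearson's r between log2 levels was 0.97 for Esrp1 with Hnrnpl, 0.93 for Esrp1 with Ilf2, 0.92 for Ilf2 with Qk and 0.89 for Dhx9 with Qk. The lowest were 0.60 for Hnrnpl with Dhx9 and 0.77 for Esrp1 with Dhx9. Adar had r below 0 with each of the other 6 members, from -0.36 with Hnrnpl to -0.85 with Dhx9. These values are a description, since all genes share the 6 libraries and their scaling.

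The gene most like each member over the 6 libraries was Fgfrl1 for Qk (r = 0.996), Casd1 for Dhx9 (r = 0.996), Foxc2 for Mbnl1 (r = 0.997), Tnfrsf11a for Ilf2 (r = 0.996), Rabgap1 for Hnrnpl (r = 0.995) and Coprs for Esrp1 (r = 0.999). Such closeness was common, since between 170 genes (Dhx9) and 533 genes (Esrp1) reached r of at least 0.95 with these 6 members. For Adar only 1 gene did, Apol9a (r = 0.954), which interferon induces in the mouse. Apol9a had 2.998, 0.889 and 3.47 FPKM in the AQP5-/- libraries, against 1.32, 2.96 and 0.530 FPKM in the AQP5+/+ libraries. As with Adar, AQP5-/- replicate 2 and AQP5+/+ replicates 1 and 3 were low and the other 3 libraries high.

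The members were themselves minor hosts of circRNAs. Of 2541 circRNAs in the table, 7 came from members, all exonic, with 20 of 14332 junction reads (0.140%). Esrp1 hosted 5 of them, Qk 1 and Dhx9 1, while Mbnl1, Adar, Ilf2 and Hnrnpl had none, and a count of 0 allows up to 3 reads per library. The Esrp1 circRNAs summed to 2, 4 and 4 reads in AQP5-/- replicates 1 to 3, against 5, 0 and 0 reads in AQP5+/+ replicates 1 to 3. Each was seen in a single library, the highest being chr4:11338722-11353463 with 4 reads in AQP5-/- replicate 2 and chr4:11360954-11379405 with 4 reads in AQP5-/- replicate 3. The circRNA of Qk (chr17:10273947-10282981, minus strand, 260 nt) had 2 reads in AQP5-/- replicate 3 and 1 read in AQP5+/+ replicate 1. That of Dhx9 (chr1:153471620-153483872, minus strand, 1360 nt) had 2 reads, both in AQP5-/- replicate 3.

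None of the 7 circRNAs had reads in at least 3 libraries, so none entered the edgeR test, in which 9.06% of 552 circRNAs reached a 2-fold change with p under 0.05. Summed, they had 14 reads in AQP5-/- and 6 reads in AQP5+/+ glands, a ratio of 2.41 per junction read with an exact 95% interval of 0.870 to 7.65, which covers counting error only. A difference was not detectable at this depth. Of the AQP5+/+ reads, all 6 came from replicate 1, the deepest library in junction reads.

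The remaining genes known to bear on circRNAs were described by 7 lists, and 115 of their 123 genes passed the filter on FPKM. Of these, 91 lay below 0 and 24 above, while 67.0% of all genes lay below 0. The median log2 fold change of the listed genes was -0.18 against -0.12 for all genes. With the libraries centred on their medians it was -0.045 against 0.01. At an unadjusted p under 0.05 (limma), 12 were lower in AQP5-/- glands and 0 higher, none changed 2-fold at that p, and none passed adjustment. Of all genes, 8.12% were lower and 3.27% higher at that level. With the libraries centred on their medians, 3 of 115 were lower and 1 higher, against 5.10% and 6.60% of all genes. In edgeR on estimated fragments 6 were lower and 5 higher, against 7.28% and 5.11% of all genes. DESeq2 gave 4 lower and 2 higher, against 6.73% and 5.79%. With quantile normalization in limma 6 were lower and 0 higher, against 6.35% and 5.27%. The calls were thus all to the lower side in the main fit, but not with median centring, in edgeR or in DESeq2. Without AQP5+/+ replicate 2, 42 were lower and 1 higher (limma), against 22.6% and 6.00% of all genes.

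Among 26 other RNA-binding proteins linked to back-splicing, 24 lay below 0, as did 67.0% of all genes, and the median was -0.23. At an unadjusted p under 0.05 (limma) 1 of 26 was lower, against 8.12% of all genes. This was Hnrnpll, the paralogue of Hnrnpl, with 19.6, 20.9 and 18.0 FPKM in AQP5-/- and 25.8, 22.6 and 23.5 FPKM in AQP5+/+ libraries (log2 fold change -0.29 ± 0.12, SE). Rbfox2 and Ptbp1, regulators of alternative splicing, had the next smallest p, with -0.51 ± 0.25 and -0.32 ± 0.16 (SE). Of 11 genes of double-stranded RNA binding and editing, the neighbours of Adar, 1 was lower at that p, against 8.12% of all genes. This was Stau2, with -0.36 ± 0.15 (SE). Adarb1, the second editing enzyme, ran the other way with 3.30, 2.72 and 2.36 FPKM in AQP5-/- and 0.785, 2.95 and 0.990 FPKM in AQP5+/+ libraries, where replicate 2 lay among the AQP5-/- values. Its log2 fold change of 0.80 ± 0.37 (SE) had an unadjusted p of 0.0639, and Strbp stood at -0.31 ± 0.16 (SE).

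In the core spliceosome 1 of 19 genes was lower at an unadjusted p under 0.05 (limma), against 8.12% of all genes. This was U2af2, which recognises the polypyrimidine tract (-0.40 ± 0.15, SE), and Cdc40 and Sf3b3 stood at -0.41 ± 0.21 and -0.27 ± 0.18 (SE). None of 5 nuclear export genes was at p under 0.05, and Ddx39b and Ddx39, the mouse forms of the helicases that export circRNAs by length in human cells, stood at -0.48 ± 0.24 and -0.29 ± 0.18 (SE). Against 8.12% of all genes, 3 of 18 circRNA decay genes were lower at an unadjusted p under 0.05 (limma). These were Tnrc6a, a partner of Argonaute, with -0.56 ± 0.22, the helicase Upf1 with -0.39 ± 0.16, and the m6A reader Ythdf2 with -0.34 ± 0.14 (SE).

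Beside the next 2 lists, 8.12% of all genes were lower at an unadjusted p under 0.05 (limma). Of 26 genes for decay of linear RNA 3 were lower, Pan3 (-0.45 ± 0.16), Pan2 (-0.66 ± 0.25) and Exosc5 (-0.39 ± 0.17, SE). Pan2 and Pan3 encode the deadenylase that first shortens poly(A) tails. Of 10 m6A genes 3 were lower, the writer subunit Wtap (-0.31 ± 0.12) and the erasers Alkbh5 (-0.38 ± 0.16) and Fto (-0.38 ± 0.16, SE). Both erasers and a writer thus lay below 0, with adjusted p of 0.431 to 0.432 (limma).

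**Figure D4:**
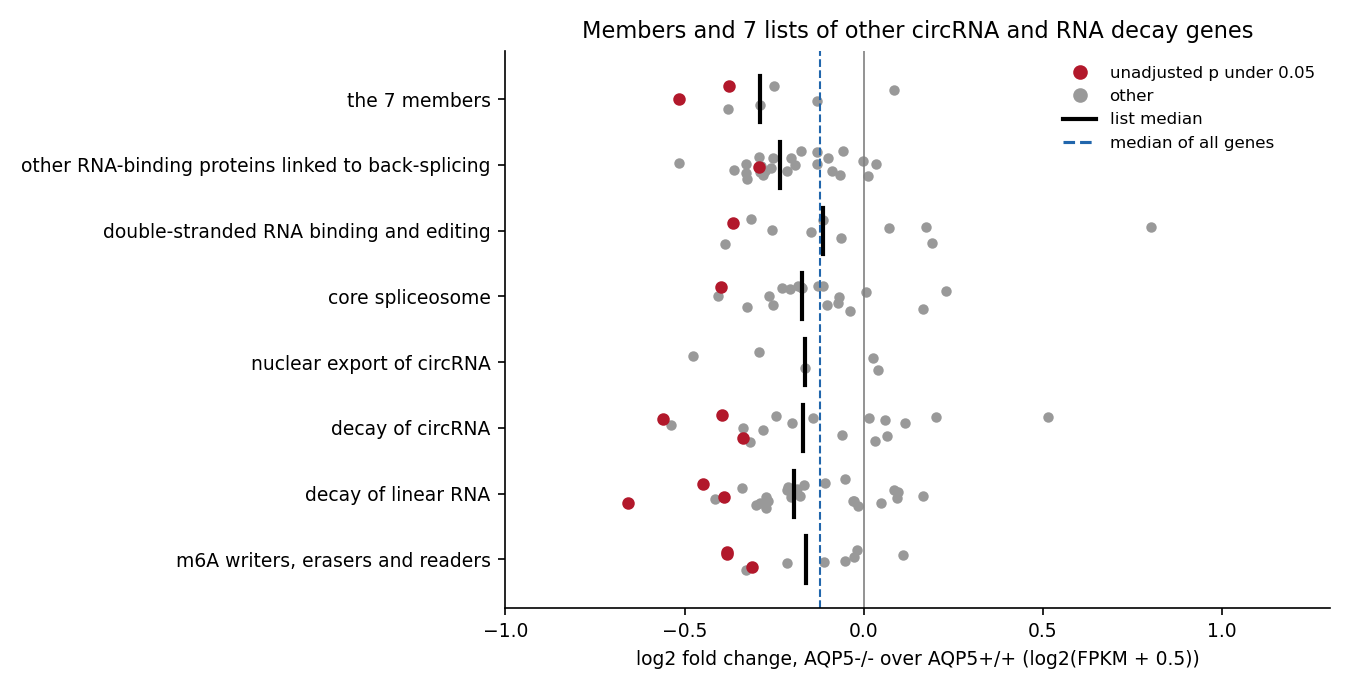
Log2 fold change, AQP5-/- over AQP5+/+ (horizontal axis), of the 7 members and of 7 lists of other genes that act on circRNA or RNA decay, with 1 point per gene. Black bars are list medians, the dashed line is the median of all genes at -0.12, and red points have an unadjusted p under 0.05. The medians of the 7 lists of other genes lie between -0.23 and -0.11.

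Markers of some cell types also stood at different levels in the 2 genotypes, with none past adjustment. In bulk tissue fewer cells of a type and less RNA per cell cannot be told apart. Of all genes, 3.27% were higher and 8.12% lower at an unadjusted p under 0.05 (limma), and 2.04% reached a 2-fold change at that p. The 14 epithelial and acinar markers tested had a median log2 fold change of 0.03, with Krt8 higher (0.42 ± 0.13) and Elf5 (-0.47 ± 0.18) and Esrp2 (-0.75 ± 0.31, SE) lower at an unadjusted p under 0.05 (limma). Their summed level was 801 to 846 FPKM in AQP5-/- and 763 to 962 FPKM in AQP5+/+ libraries. The 8 immune markers tested had a median of 0.63, and their sum was 217 to 363 FPKM in AQP5-/- and 123 to 205 FPKM in AQP5+/+ libraries. Of these, 3 were higher at an unadjusted p under 0.05, the macrophage lysozyme gene Lyz2 (1.24 ± 0.35), Cd74 (0.64 ± 0.22) and Ptprc (0.73 ± 0.26, SE), and Lyz2 was the one marker past the 2-fold threshold. It had 70.2, 115 and 157 FPKM in the AQP5-/- libraries, against 31.6, 43.3 and 69.1 FPKM in the AQP5+/+ libraries, with an adjusted p of 0.431 (limma). The groups did not overlap for Lyz2, but the lowest AQP5-/- library lay close to AQP5+/+ replicate 3.

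The 6 fibroblast markers had a median of 0.64 and sums of 80.6 to 138 FPKM in AQP5-/- and 52.2 to 94.5 FPKM in AQP5+/+ libraries. Dcn was the 1 of 6 higher at an unadjusted p under 0.05 (0.32 ± 0.14, SE), against 3.27% of all genes. Col1a2 and Col3a1 stood at 0.89 ± 0.43 and 1.22 ± 0.61 (SE). Of the 5 endothelial markers 4 lay below 0, as did 67.0% of all genes. The median of these 5 was -0.45, with sums of 9.64 to 13.8 FPKM in AQP5-/- and 11.7 to 17.2 FPKM in AQP5+/+ libraries. At an unadjusted p under 0.05 Emcn was lower (-0.95 ± 0.23) and Vwf higher (0.71 ± 0.26, SE), against 8.12% and 3.27% of all genes. Kdr stood at -0.50 ± 0.23 (SE). No myoepithelial, skeletal muscle, nerve or erythrocyte marker was at that level, and no adipocyte marker passed the filter on FPKM. The part of these cell types in the lower Hnrnpl and Esrp1 levels was not tested.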

How the data were processed

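Total RNA of lacrimal glands was depleted of rRNA and sequenced as paired reads in 6 libraries. Per the labels, the authors used cutadapt 1.9.3, STAR 2.5.1b, HISAT2 2.0.4, Cufflinks, Cuffdiff 2.2.1 and edgeR 3.16.5 with mm10, and circRNAs were found with DCC. The deposited tables hold raw counts of junction reads per circRNA, FPKM per gene, and estimated counts per gene scaled by 1 factor per library. Dividing the estimated counts by that factor, read from the smallest step of the values, gave 11244579 to 13723134 estimated fragments per library (89.7% to 90.7% whole within 0.02), which were rounded for count tests. The deposited 6 library columns of edgeR log values were not used.

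Genes with a mean of at least 0.5 FPKM were tested with limma 3.58.1 on log2(FPKM + 0.5), with a trend and Benjamini-Hochberg adjustment. This scale understates changes of low genes. Junction reads of circRNAs seen in at least 3 libraries were tested with edgeR 4.0.16 (quasi-likelihood), and totals and correlations with exact permutation tests. The threshold of a 2-fold change with p under 0.05 follows the authors' methods. Alternatives included edgeR and DESeq2 1.42.0 on estimated fragments. The limma and edgeR tests were checked on simulated data with changes much larger than those seen in the mRNA of the members. That check does not bear on differences as small as theirs. Promoter sequences are RefSeq's (GRCm38.p6). All members were named, with up to 3 genes of smallest p from each list of regulators, and from each marker list with a gene at p under 0.05, any gene past the threshold, and the gene most correlated with each member. Other genes were named after their values were seen. Members and lists were chosen with earlier results of these data known.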

Additional observations from a re-analysis of the deposited data

How the results depend on the processing

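No member reached a 2-fold change with p under 0.05 in any of the 18 alternatives of the mRNA fit. The count of members at an unadjusted p under 0.05 was 2 as reported, 4 with array weights, 0 with the term for Y-linked transcripts and 1 to 5 when 1 library was left out, all of them lower in AQP5-/-. Of all genes, 8.12% were lower at that level as reported, 23.4% with array weights, 1.19% with the Y-linked term and 2.30% to 22.6% when 1 library was left out. Listed genes lower at that level numbered 12 as reported, 3 with median centring, 6 with quantile normalization, 4 without a trend, 40 with array weights, 0 with the Y-linked term, 6 in edgeR, 4 in DESeq2 and 0 to 42 when 1 library was left out. Listed genes higher at that level numbered 0 as reported, 5 in edgeR, 2 in DESeq2, and 0 or 1 in the other alternatives. Of all genes, 240 passed the threshold as reported, 554 with array weights, 104 with the Y-linked term and 83 to 664 when 1 library was left out. Without AQP5+/+ replicate 2 the counts were 5, 42 and 664, the highest of each range. No sign of a pairing by replicate number was seen. Same-numbered libraries correlated at -0.14, -0.18 and -0.15 in their deviations from the group means, and differently numbered ones at -0.07 to 0.21. With 3 libraries per group these values cannot exclude a pairing. With the replicate number as a block, 1 member (Hnrnpl) and 1 listed gene were at an unadjusted p under 0.05. Several directions turned. With the Y-linked term, log2 fold changes were 0.13 for Qk, 0.048 for Mbnl1, 0.22 for Dhx9, 0.0045 for Ilf2 and -0.32 for Adar. Dhx9 was 0.0060 with median centring and 0.0015 in DESeq2, and Adar was -0.04 without AQP5-/- replicate 1 and -0.11 without AQP5+/+ replicate 3, in a range up to 0.29. The cause was not tested. Members correlated with junction reads at p under 0.05 numbered 4 as reported and 5 on FPKM without the log. They numbered 3 with the factor of the deposited counts, Adar among them downwards, and 0 with raw totals or with TMM factors. Of all genes, 15.8% were correlated upwards as reported, 10.3% with that factor, 3.24% with raw totals and 0.985% with TMM factors. The median r of all genes was 0.45 both as reported and on FPKM without the log. The junction read ratio of 0.969 stayed between 0.896 and 1.09 when 1 library was left out. The ratio for circRNAs of members, 2.41, was 1.62 to 3.06 when 1 library was left out, and without AQP5+/+ replicate 1 no AQP5+/+ read was left, so no ratio was formed. Depth limits the circRNA values, which rest on 20 reads.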

Other observations

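The listed genes outside the 7 members hosted 40 circRNAs from 27 genes, with 251 junction reads, and 7 of the 40 had reads in enough libraries to be tested. The most abundant was an exonic circRNA of Hnrnpll (chr17:80044494-80053641, minus strand, mm10), which had 8, 14 and 8 junction reads in the AQP5-/- libraries, against 6, 15 and 10 in the AQP5+/+ libraries. Its log2 fold change was -0.02 ± 0.59 (SE, adjusted p = 0.999 in edgeR), beside -0.29 ± 0.12 (SE) for the linear mRNA of the same gene. The next in abundance, an exonic circRNA of Pan3 (chr5:147450653-147455188, plus strand), had 11, 10 and 8 reads in the AQP5-/- libraries, against 5, 2 and 0 in the AQP5+/+ libraries. Its log2 fold change was 2.11 ± 0.81 (SE, unadjusted p = 0.00963, adjusted p = 0.442 in edgeR), beside -0.45 ± 0.16 (SE) for the Pan3 mRNA. The authors reported this circRNA as upregulated, with quantitative PCR going the same way, and recovered it with an antibody to an Argonaute protein. For Hnrnpll and Pan3 alike, the circRNA value had TMM scaling and the mRNA value the deposited FPKM scaling, so they are not on the same scale. The Pan3 circRNA was the 1 of 7 past the threshold of a 2-fold change with p under 0.05, against 9.06% of the 552 circRNAs tested. Without AQP5+/+ replicate 3, the library with no read, it stood at 1.59 ± 0.84 (SE, unadjusted p = 0.0576 in edgeR). Xrn2, a nuclear exonuclease of linear RNA, hosted a circRNA with 2, 0 and 10 reads in the AQP5-/- libraries, against 3, 3 and 2 in the AQP5+/+ libraries.

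The Y-linked genes were uneven in AQP5+/+ replicate 2. Uty had 14.4 to 14.96 FPKM in the AQP5-/- libraries and 16.7 FPKM in that library. Eif2s3y had 17.8 to 28.0 FPKM in the AQP5-/- libraries and 2.04 FPKM in that library. The cause was not tested.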
